A study of Mus musculus and Homo sapiens with 12 samples.

Results

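The steroid receptor coactivators (SRC) NCOA1, NCOA2 and NCOA3 and the lysine acetyltransferases CREBBP (CBP) and EP300 (p300) were followed through RNA sequencing of 2 breast cancer lines, each as cells labelled PFKFB4 knockout and as wild type. They were taken by symbol in the mouse table and by 5 given Ensembl identifiers in the human table, 5 of 54331 and 5 of 60233 genes. The human table carries identifiers only, so the symbols NCOA1 (ENSG00000084676), NCOA2 (ENSG00000140396), NCOA3 (ENSG00000124151), CREBBP (ENSG00000005339) and EP300 (ENSG00000100393) follow that given pairing. All 10 rows passed the filter on low values, which asked for 0.5 TPM or more in 3 or more of a line's 6 libraries. TPM is a relative abundance corrected for transcript length and library size.

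The groups were PFKFB4-knockout EMT6, wild-type EMT6, PFKFB4-knockout MDA-MB-231 and wild-type MDA-MB-231, with 3 libraries each and 12 in all. MDA-MB-231 cells derive from a human breast adenocarcinoma and EMT6 cells from a mouse mammary tumour. Per the labels, both grew in high-glucose medium with serum, and poly(A) RNA was sequenced from single ends. The labels call the libraries of a group biological replicates. They give neither the edited part of PFKFB4 nor the number of clones, and do not say whether a replicate is a separate culture, so the p-values cover the spread among these libraries only. The knockout columns carry a code that no label explains and were assigned by elimination. PFKFB4 is a bifunctional enzyme that sets the level of a fructose bisphosphate regulator of glycolysis.

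SRC proteins are adaptors of gene activation. They bind ligand-loaded nuclear receptors through short leucine-rich LXXLL motifs and bring in CBP or p300, which acetylate histones and other factors at enhancers and promoters, and the arginine methyltransferase CARM1. NCOA3, also called SRC-3 or AIB1, is amplified in some breast tumours and has been reported as a substrate that PFKFB4 phosphorylates, with ATF4 among the factors it then coactivates. RNA levels do not measure phosphorylation.

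The receptor-binding motifs are a feature that the SRC genes share. The following stretches come from the longest annotated mouse coding sequences (GENCODE M21, GRCm38, coding strand) and hold the 3 neighbouring LXXLL codon runs that each SRC gene carries in its middle part, with the 5 codons of each motif in capitals.
Ncoa1, codon 637: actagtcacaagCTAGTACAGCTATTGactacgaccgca
Ncoa1, codon 694: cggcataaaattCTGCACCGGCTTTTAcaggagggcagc
Ncoa1, codon 755: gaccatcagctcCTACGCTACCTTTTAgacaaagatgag
Ncoa2, codon 641: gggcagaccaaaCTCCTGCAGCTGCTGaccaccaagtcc
Ncoa2, codon 690: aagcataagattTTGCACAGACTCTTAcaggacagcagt
Ncoa2, codon 745: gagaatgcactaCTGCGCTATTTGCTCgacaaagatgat
Ncoa3, codon 613: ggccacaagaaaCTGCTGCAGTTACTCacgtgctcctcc
Ncoa3, codon 677: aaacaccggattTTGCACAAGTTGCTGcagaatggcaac
Ncoa3, codon 729: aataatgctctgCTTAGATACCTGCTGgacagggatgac
In all, the motif (leucine codons at each L and any codon at each X, in frame) occurred 7 times in Ncoa1, 4 times in Ncoa2, 6 times in Ncoa3 and 3 times each in Crebbp and Ep300. Of 21562 mouse coding sequences, 45% held it at least once and 9.93% held it 3 times or more, so a match alone marks no coactivator.

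CBP and p300 are paralogs with related protein sequences. The longest identical stretch of their coding sequences, in capitals below with its flanks, spans 29 bases from codon 1186 of Crebbp and codon 1148 of Ep300. It is shown because reads from the 2 genes have to be told apart.
Crebbp: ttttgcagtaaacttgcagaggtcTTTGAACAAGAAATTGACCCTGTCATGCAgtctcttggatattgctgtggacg
Ep300: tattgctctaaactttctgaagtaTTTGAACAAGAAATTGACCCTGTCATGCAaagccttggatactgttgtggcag
No stretch of 50 bases was shared between the annotated mouse transcripts of any 2 of the 5 genes. Exons of other genes covered little of them: Sulf2 lies antisense over 154 bases (1.95%) of Ncoa3 exons, 4921501I09Rik antisense over 68 bases (0.793%) of Ncoa1, and Gm23880 in sense over 54 bases (0.378%) of Ep300. The strand setting of the counting is not given in the sources used here.

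As a check of the labels, mouse Pfkfb4 had 6.96, 6.87 and 8.24 TPM in the EMT6 knockout libraries against 10.2, 10.5 and 10.4 TPM in the wild-type libraries. It was reduced but present (log2 fold change -0.45 ± 0.08, SE; limma adjusted p = 0.00487). It lost this call with library scaling by median ratios (-0.22, adjusted p = 0.0697) and with a trend on exon length removed (-0.18, adjusted p = 0.134). Human PFKFB4 was not analysed here. The EMT6 libraries carried the epithelial keratin Krt8 (mean 535 TPM in knockout and 482 TPM in wild type), while the epithelial adhesion marker Epcam averaged 0.210 TPM in knockout and 0.231 TPM in wild type. Of 7 epithelial markers 4 were tested, with Krt8 higher (0.15) and 3 keratins lower. Krt14 averaged 3.94 TPM in knockout and 36.5 TPM in wild type (-2.92), Krt18 15.5 TPM in knockout and 36.3 TPM in wild type (-1.17), and Krt19 0.0177 TPM in knockout and 1.95 TPM in wild type (-1.53). The summed epithelial level, mostly Krt8, was 542 to 568 TPM in knockout and 530.2 to 584 TPM in wild type. Of 4 mesenchymal markers 3 were tested, with Zeb1 (-1.09) and Fn1 (-0.45) lower and Vim (0.28) higher, and a summed level of 3647 to 3799 TPM in knockout and 3231 to 3472 TPM in wild type. Of 4 fibroblast and pericyte markers 3 were tested, with Pdgfra (-0.87) and Pdgfrb (-0.21) lower and Dcn (1.32) higher, and a summed level of 5.59 to 5.70 TPM in knockout and 6.0 to 7.21 TPM in wild type. Of 6 leukocyte markers 2 were tested and both were higher, with a summed level of 58.6 to 63.8 TPM in knockout and 24.7 to 28.7 TPM in wild type, nearly all of it Cd68 and Coro1a. Ptprc, the pan-leukocyte marker, stood at 0.00409, 0.00386 and 0 TPM in knockout and was listed at 0 in all wild-type libraries. None of 4 endothelial markers was tested, and Kdr was listed at 0 in all libraries. Pdgfrb lost its call under median ratios (-0.09, limma adjusted p = 0.25) and without the length trend (0.08, limma adjusted p = 0.272). Fn1 lost its call without the length trend (-0.01, limma adjusted p = 0.949). The other marker calls kept their direction and call under both alternatives. The part of these markers in the results on the coactivators was not tested.

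In EMT6, 4 of the 5 genes were called lower in the knockout from the deposited TPM, and Ep300 fell most. Only the Ep300 call held under all alternatives described below. Ep300, Ncoa2, Ncoa3 and Crebbp passed the test downward, with 0 of 5 upward, and in all 4 the knockout and wild-type libraries did not overlap. Among all 13499 tested genes, 42.3% were called lower and 14.5% higher, 56.7% in all. Among genes of similar exon length, in the bins described below, 61.8% (bin of Ncoa1 and Ncoa3) and 66.9% (bin of Ncoa2, Crebbp and Ep300) were called lower. Knockout libraries lay wholly below wild type in 48.3% of tested genes and wholly above in 17.9%, 66.2% in all. The median log2 fold change of the 5 genes was -0.61, beside -0.21 over all tested genes. Values are from bulk RNA, so fewer transcripts per cell and fewer cells with the transcript cannot be told apart.

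**Figure D1:**
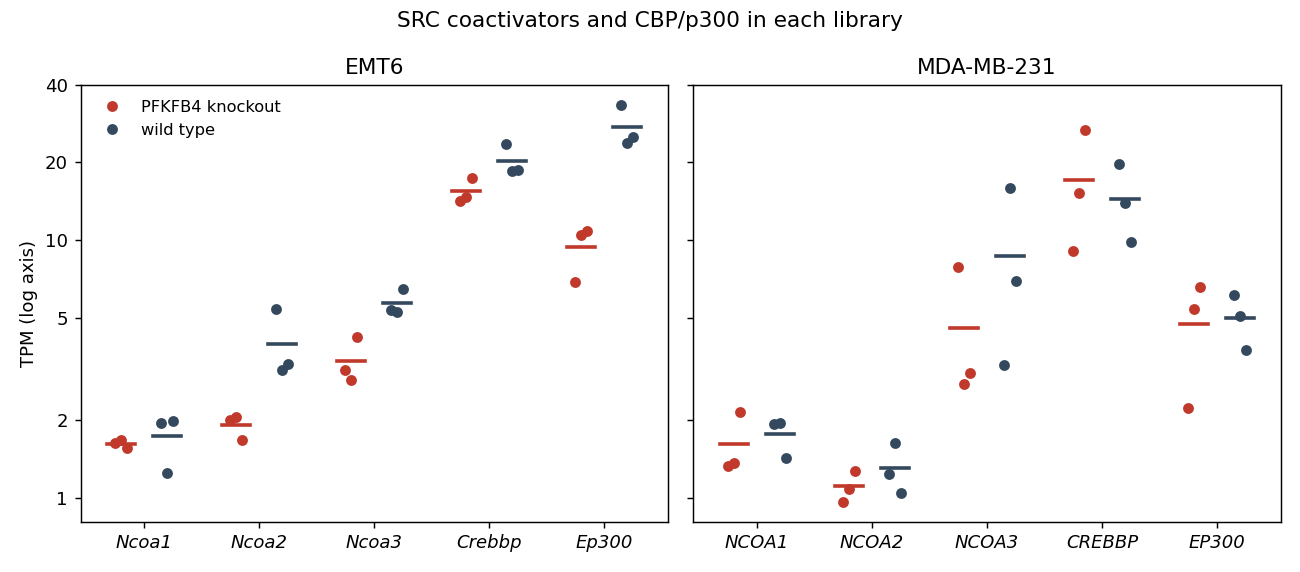
TPM of each gene in each library on a log axis, EMT6 on the left and MDA-MB-231 on the right; points are libraries, bars are means of 3, PFKFB4 knockout in red and wild type in dark blue. The Ep300 points of EMT6 knockout lie at 6.87 to 10.9 TPM, all below the wild-type points at 23.9 to 33.4 TPM, while every MDA-MB-231 gene overlaps between groups.

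Ep300 encodes p300, an acetyltransferase that marks active enhancers. The gene lies on chromosome 15, 81585351 to 81652077, plus strand, of GRCm38 (ENSMUSG00000055024). It had 6.87, 10.4 and 10.9 TPM in the knockout libraries against 33.4, 23.9 and 25.0 TPM in the wild-type libraries. The highest knockout library thus stood below the lowest wild-type one by a wide gap. Means were 9.39 ± 2.19 TPM in knockout and 27.4 ± 5.21 TPM in wild type (SD, n = 3 each), 2.92-fold lower in knockout. On the log2(TPM + 1) scale the difference was -1.46 (log2 fold change, SE 0.20; limma adjusted p = 0.00203; 95% interval -1.95 to -0.97). Only 239 of the tested genes (1.77%) had a log2 fold change at or below that value. The call held under all 14 alternatives run, with log2 fold changes of -1.57 to -0.99 and adjusted p of 0.00193 to 0.0275.

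Crebbp encodes CBP, the closest relative of p300, and the change was far smaller. The gene lies on chromosome 16, 4081328 to 4213997, minus strand (ENSMUSG00000022521). It had 14.2, 14.7 and 17.5 TPM in the knockout libraries against 23.7, 18.5 and 18.7 TPM in the wild-type libraries, groups that nearly touch. Means were 15.5 ± 1.74 TPM in knockout and 20.3 ± 2.93 TPM in wild type (SD, n = 3 each). The measured log2 fold change came to -0.37 ± 0.12 (SE; limma adjusted p = 0.0435), with a 95% interval of -0.67 to -0.07. This call was lost under 10 of 14 alternatives. Leaving out knockout replicate 1 gave an adjusted p of 0.121, and knockout replicate 2 gave 0.108. Leaving out wild-type replicate 1, 2 or 3 gave 0.0847, 0.0515 and 0.0572.

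The order of the 2 acetyltransferases turned over in EMT6. Within each library, which removes any library scaling, the TPM ratio of Ep300 to Crebbp was 0.484, 0.707 and 0.623 in the knockout libraries and 1.41, 1.29 and 1.33 in the wild-type libraries. Crebbp was therefore the more abundant transcript in every knockout library and Ep300 in every wild-type library. The 2 genes have similar annotated exon lengths, 14273 nt for Ep300 and 13540 nt for Crebbp. Their summed level was 21.1, 25.2 and 28.3 TPM in knockout and 57.1, 42.4 and 43.8 TPM in wild type.

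Ncoa2, the SRC gene also known as GRIP1 or TIF2, lies on chromosome 1, 13139105 to 13374083, minus strand (ENSMUSG00000005886). It had 1.99, 2.05 and 1.68 TPM in the knockout libraries against 5.40, 3.14 and 3.29 TPM in the wild-type libraries. Wild-type replicate 1 stood apart at the top, and the groups did not overlap. Means were 1.91 ± 0.199 TPM in knockout and 3.94 ± 1.26 TPM in wild type (SD, n = 3 each), 2.07-fold lower in knockout. The measured log2 fold change came to -0.74 ± 0.18 (SE; limma adjusted p = 0.0155; 95% interval -1.18 to -0.29). Without wild-type replicate 1 it was -0.54 (limma adjusted p = 0.00795).

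Ncoa3, the reported PFKFB4 substrate, lies on chromosome 2, 165992636 to 166073242, plus strand (ENSMUSG00000027678). It had 3.12, 2.86 and 4.21 TPM in the knockout libraries against 5.37, 5.26 and 6.43 TPM in the wild-type libraries. All knockout libraries stood below all wild-type libraries. Means were 3.40 ± 0.718 TPM in knockout and 5.69 ± 0.644 TPM in wild type (SD, n = 3 each), 1.67-fold lower in knockout. The measured log2 fold change came to -0.61 ± 0.14 (SE; limma adjusted p = 0.0112; 95% interval -0.95 to -0.28).

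Ncoa1, the founding SRC gene, did not pass the test. It lies on chromosome 12, 4247362 to 4477182, minus strand (ENSMUSG00000020647). It had 1.63, 1.67 and 1.55 TPM in the knockout libraries against 1.95, 1.24 and 1.99 TPM in the wild-type libraries, with wild-type replicate 2 below all knockout libraries. The measured log2 fold change came to -0.05 ± 0.13 (SE; limma adjusted p = 0.767), with a 95% interval of -0.36 to 0.26.

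Among the SRC genes of EMT6, Ncoa3 was the most abundant on average and Ncoa1 the least. In knockout all neighbours in the order Crebbp, Ep300, Ncoa3, Ncoa2, Ncoa1 had ranges that did not overlap. The ranges of Ncoa2 (lowest 1.679 TPM) and Ncoa1 (highest 1.674 TPM) nearly touched, so their order is not clear. In wild type the order was Ep300, Crebbp, Ncoa3, Ncoa2, Ncoa1, and the ranges of Ncoa3 and Ncoa2 overlapped. Ncoa1 made up 24.1, 25.4 and 20.8% of the summed SRC level in the knockout libraries and 15.4, 12.9 and 17.0% in the wild-type libraries, without overlap. Such a share is free of library scaling but not of a trend on exon length. Exons span 8576 nt in Ncoa1, 15642 nt in Ncoa2 and 7895 nt in Ncoa3, and the part of length in the shares was not tested. The share of Ncoa3 was 48.8 ± 6.92% in knockout and 50.6 ± 7.24% in wild type (SD, n = 3 each), a difference smaller than the spread.

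**Figure D2:**
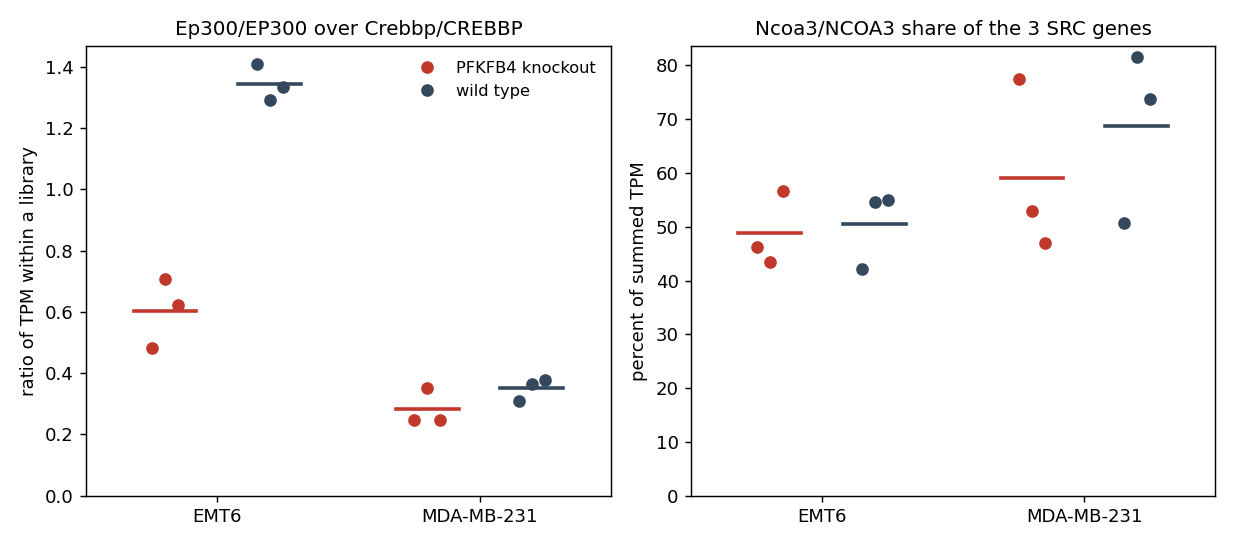
Ratios formed within each library, with EMT6 and MDA-MB-231 side by side; the left panel gives the TPM ratio of EP300 to CREBBP and the right panel the NCOA3 percent of summed NCOA1, NCOA2 and NCOA3 TPM, with points for libraries and bars for means of 3. The EMT6 ratio lies at 0.484 to 0.707 in knockout and 1.29 to 1.41 in wild type, and the NCOA3 share overlaps between groups in both lines.

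All 5 genes have a long annotated exon length, and genes with a long exon length were lower in the EMT6 knockout as a class. Exon length here is the merged length of all annotated exons of a gene, not that of a single transcript. Exon lengths were 7895 nt for Ncoa3, 8576 nt for Ncoa1, 13540 nt for Crebbp, 14273 nt for Ep300 and 15642 nt for Ncoa2, longer than 84.6 to 98.1% of tested genes. When tested genes were ranked by exon length and divided into 10 bins, the bin of the longest, which holds Ncoa2, Crebbp and Ep300, had a median log2 fold change of -0.46 with 66.9% called lower. The next bin, which holds Ncoa1 and Ncoa3, had a median of -0.38 with 61.8% called lower, and bin 2, counted from the shortest, had a median of 0.05 with 21.2% called lower. The medians were not monotone: bin 1, with the shortest genes, stood at -0.14 with 16.6% called lower, below bins 2 to 4 (0.05, 0.01 and -0.08). Ep300, Ncoa2 and Ncoa3 lay below the median of their bins, and Crebbp and Ncoa1 lay above it.

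**Figure D3:**
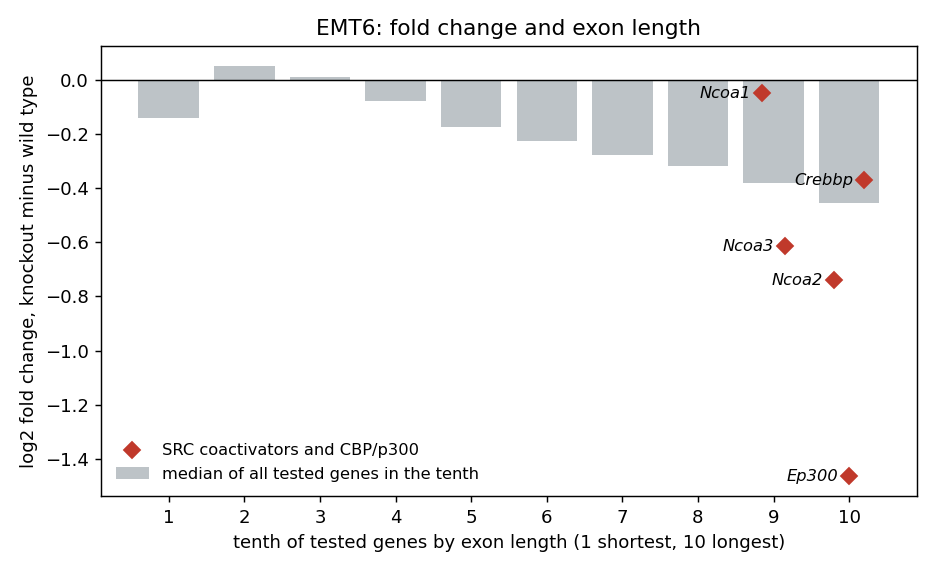
Median log2 fold change (knockout minus wild type) of all tested EMT6 genes in 10 bins of exon length as grey bars, with the 5 genes as red diamonds in their own bin. The median is -0.46 in the bin of the longest; Ep300 at -1.46 lies far below it and Ncoa1 at -0.05 lies above the median of its bin.

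The log2 fold changes of all 5 genes shifted with the scaling of the libraries and with removal of the length trend. The median tested gene had a log2 fold change of -0.21 in TPM and -0.01 after scaling by median ratios. Under that scaling 24.8% of all tested genes were called lower and 27% higher, and Ep300 (-1.23, adjusted p = 0.00353) and Ncoa2 (-0.56, adjusted p = 0.0375) kept their limma calls. Ncoa3 (-0.41, adjusted p = 0.0526) and Crebbp (-0.13, adjusted p = 0.385) lost theirs, and Ncoa1 stood at 0.11 (adjusted p = 0.477). With the trend on exon length removed, 26.6% of all tested genes were called lower and 23.2% higher. Of the 5 genes, Ep300 alone was still called lower (-0.99, adjusted p = 0.00532), and Ncoa1 was called higher (0.34, adjusted p = 0.0479). Ncoa2 (-0.26, adjusted p = 0.176) and Ncoa3 (-0.24, adjusted p = 0.233) stayed negative without a call, and Crebbp turned positive (0.10, adjusted p = 0.461). Whether the length trend is biological or technical was not tested.

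**Figure D4:**
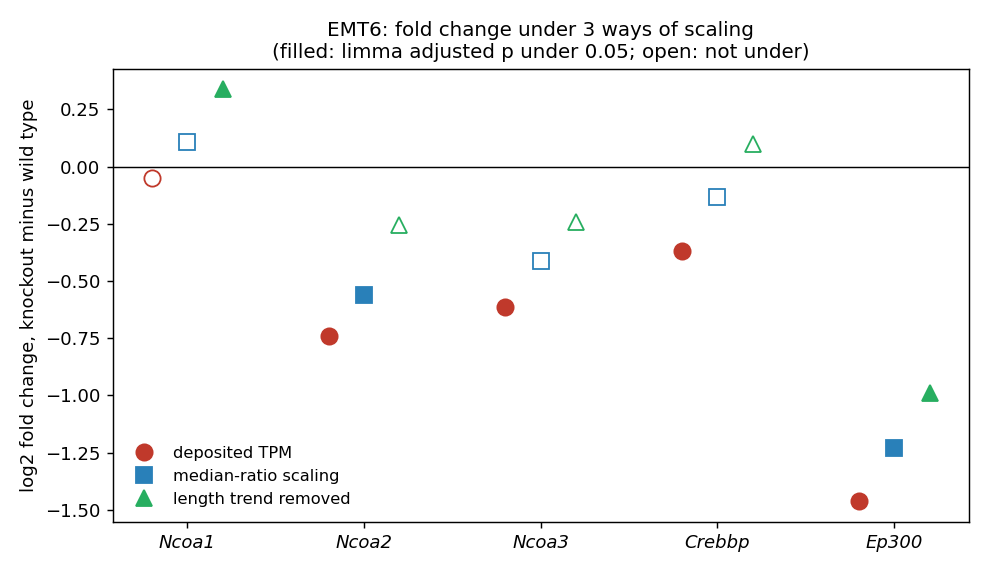
Log2 fold change of each gene in EMT6 (knockout minus wild type) from the deposited TPM, after median-ratio scaling and after removal of the exon length trend, with filled symbols for limma adjusted p under 0.05. Ep300 is filled under all 3 (-1.46, -1.23 and -0.99), whereas Ncoa1 and Crebbp change sign with the length trend removed.

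In MDA-MB-231, none of the 5 genes passed the test, and the replicate spread was wide for 3 of them. At an adjusted p under 0.05 limma called 0 of 5, beside 12.1% of 15299 tested genes called lower and 7.97% called higher, 20% in all. In all 5 the knockout and wild-type libraries overlapped, whereas 22.9% of tested genes lay wholly lower in knockout and 17.2% wholly higher, 40.1% in all. The median log2 fold change of the 5 was -0.12, beside -0.04 over all tested genes.

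NCOA3 had the widest spread of the 5 among wild-type libraries. It had 7.82, 2.76 and 3.03 TPM in the knockout libraries against 3.26, 15.9 and 6.91 TPM in the wild-type libraries. Knockout replicate 1 lay above 2 of the 3 wild-type libraries, and wild-type replicate 1 lay close to the other knockout libraries. The wild-type libraries spanned 4.87-fold, wider than 98.6% of tested genes, and the knockout libraries 2.84-fold, wider than 95.5%. The measured log2 fold change came to -0.70 ± 0.55 (SE; limma adjusted p = 0.418), with a 95% interval of -2.02 to 0.63, which holds both 0 and the value of Ncoa3 in EMT6. Without wild-type replicate 2 it was -0.18 (adjusted p = 0.818), without wild-type replicate 1 it was -1.18 (adjusted p = 0.188), and without knockout replicate 1 it was -1.09 (adjusted p = 0.231).

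CREBBP and EP300 put the human libraries in the same order, from knockout replicate 3 at the top to knockout replicate 1 at the bottom. CREBBP had 9.04, 15.3 and 26.8 TPM in the knockout libraries against 19.7, 13.9 and 9.83 TPM in the wild-type libraries, so all wild-type values lay inside the knockout range. The CREBBP difference was 0.15 (log2 fold change, SE 0.40; limma adjusted p = 0.826; 95% interval -0.82 to 1.11). EP300 had 2.23, 5.37 and 6.59 TPM in the knockout libraries against 6.11, 5.06 and 3.72 TPM in the wild-type libraries. All but knockout replicate 1 lay between 3.72 and 6.59 TPM. The EP300 difference was -0.13 (log2 fold change, SE 0.34; limma adjusted p = 0.822), with a 95% interval of -0.93 to 0.68. The interval leaves out a fall of the size measured for Ep300 in EMT6, -1.46, though each value has its own error and the difference between the lines was not tested.

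The ratio of EP300 to CREBBP was steadier than either gene. It was 0.247, 0.352 and 0.246 in the knockout libraries and 0.309, 0.364 and 0.379 in the wild-type libraries, with overlap. CREBBP was the more abundant in every MDA-MB-231 library, as it was in the EMT6 knockout libraries. The 3 libraries with the most NCOA3 were the 3 with the least CREBBP, and the TPM ratio of NCOA3 to CREBBP was 0.865, 0.181 and 0.113 in the knockout libraries and 0.165, 1.14 and 0.703 in the wild-type libraries. The knockout library with the most NCOA3, replicate 1, had the least CREBBP and EP300 of its group.

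NCOA1 and NCOA2 were low and more even than the other human members, though not narrow beside all tested genes. NCOA1 spanned 1.63-fold in knockout, wider than 81.3% of tested genes, and 1.37-fold in wild type, wider than 65.3%. NCOA2 spanned 1.32-fold in knockout, wider than 56.5%, and 1.56-fold in wild type, wider than 79.9%. NCOA1 had 1.32, 1.37 and 2.15 TPM in the knockout libraries against 1.93, 1.94 and 1.42 TPM in the wild-type libraries (log2 fold change -0.09 ± 0.16, SE; limma adjusted p = 0.726; 95% interval -0.47 to 0.29). NCOA2 had 0.962, 1.08 and 1.27 TPM in the knockout libraries against 1.23, 1.63 and 1.04 TPM in the wild-type libraries (log2 fold change -0.12 ± 0.13, SE; limma adjusted p = 0.542; 95% interval -0.43 to 0.18). In both genes the groups overlapped. In wild type, the neighbours CREBBP and NCOA3, NCOA3 and EP300, and NCOA1 and NCOA2 overlapped in range, and EP300 lay above NCOA1. In knockout only EP300 and NCOA3 overlapped among neighbours. The share of NCOA3 in the summed SRC level was 59.1 ± 16.1% in knockout and 68.7 ± 16.0% in wild type (SD, n = 3 each).

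Set side by side, the fold changes of the 2 lines were -0.05 and -0.09 for NCOA1, -0.74 and -0.12 for NCOA2, -0.61 and -0.70 for NCOA3, -0.37 and 0.15 for CREBBP and -1.46 and -0.13 for EP300, EMT6 given before MDA-MB-231. The tables were normalized separately, and the difference between the lines was not tested.

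Partners and counterparts of these coactivators were read in EMT6 from 9 lists, 98 genes in all. Of 88 tested, 56 were lower and 5 higher by limma, with a median log2 fold change of -0.40 beside -0.21 over all tested genes. With median ratios as the scale 31 were lower and 15 higher (median -0.17), and without the length trend 27 and 21 (median -0.09). Of all tested genes, 42.3% were lower and 14.5% higher in TPM, 24.8% and 27% under median ratios, and 26.6% and 23.2% without the length trend. The counts of the single lists are to be read against these shares, and nothing particular to a list follows from a count near them. The lists were drawn up with results of these data known.

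Among 13 tested SRC partners and other receptor coactivators, 10 were lower and 0 higher (median -0.45). Med1, the Mediator subunit that contacts nuclear receptors, fell to 8.08 ± 0.150 TPM in knockout, against 18.0 ± 3.10 TPM in wild type (SD, n = 3 each; log2 fold change -1.05, limma adjusted p = 0.00109). Prmt2, an arginine methyltransferase, was lower too (-0.45). Both calls held under median ratios, where the list gave 6 lower and 2 higher, and without the length trend, where it gave 4 and 2. Of 6 corepressor genes 5 were lower and 0 higher (median -0.37). Ncor1, the scaffold that holds a deacetylase at unliganded receptors, stood at 39.4 ± 2.72 TPM in knockout and 64.2 ± 5.35 TPM in wild type (-0.69, limma adjusted p = 0.00118), and its partner Tbl1x was at -0.44, a call lost without the length trend (adjusted p = 0.110). Under median ratios, and also without the length trend, 2 corepressor genes were lower and 0 higher.

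Of 11 other lysine acetyltransferases, 8 were lower and 0 higher (median -0.36), with 4 lower under median ratios, 2 lower without the length trend and 0 higher in both. Gtf3c4, a transcription factor subunit with acetyltransferase activity (-0.68), and Kat6a, a MYST-family enzyme (-0.97), had the smallest adjusted p. Kat6a stood at 4.83 ± 0.586 TPM in knockout and 10.6 ± 3.06 TPM in wild type. Of 14 tested deacetylases, the enzymes that remove the mark, 6 were lower and 2 higher (median -0.23). Hdac2 (0.21) and Sirt2 (0.33) rose, and Sirt6 (-0.41) and Hdac7 (-0.51) fell. Sirt6 lost its call under median ratios (adjusted p = 0.0633) and Hdac7 without the length trend (adjusted p = 0.171). The list gave 2 lower and 4 higher under median ratios, and 1 and 4 without the length trend.

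Of 10 tested readers of acetylated histones and CBP/p300 partners, 8 were lower and 1 higher (median -0.57). Brd2, a bromodomain protein that binds acetylated histones, stood at 80.0 ± 2.61 TPM in knockout and 143 ± 1.12 TPM in wild type (SD, n = 3 each; log2 fold change -0.83, limma adjusted p = 8.85e-05). Cited2, which competes with other factors for a CBP/p300 domain, rose (0.23, limma adjusted p = 0.0429). The direction and call of both genes held under median ratios, where the list gave 6 lower and 1 higher, and without the length trend, where it gave 5 and 1.

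Of 16 tested nuclear receptors, 9 were lower and 0 higher (median -0.32), but without the length trend 5 were lower and 6 higher, and under median ratios 5 and 2. Ppard (-1.02), a lipid-sensing receptor, and Rxrb (-0.72), a shared dimer partner, fell under all 3. Among 8 factors tied to SRC-3 turnover, 6 were lower and 1 higher (median -0.41). Trim33 (-0.88), a ubiquitin ligase, and Psme3 (-0.40), the proteasome activator that degrades SRC-3, were lower, and Rbx1 (0.26), a ubiquitin ligase subunit, was higher. Psme3 was at -0.16 under median-ratio scaling (limma adjusted p = 0.0529) and at -0.28 with the length trend removed (limma adjusted p = 0.0140). The turnover list gave 2 lower and 1 higher under median ratios, and 4 and 3 without the length trend.

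Of 6 tested genes of the SRC-3 and ATF4 metabolic axis, 2 were lower and 1 higher (median -0.08). Atf4 itself, the stress-responsive factor, stood at 146 ± 1.56 TPM in knockout and 190.5 ± 15.2 TPM in wild type (-0.37, limma adjusted p = 0.00381), and at -0.13 under median-ratio scaling (adjusted p = 0.149). Tkt, the transketolase of the pentose phosphate pathway, rose to 177 ± 4.82 TPM in knockout, against 142 ± 11.3 TPM in wild type (0.32, limma adjusted p = 0.00799). Ampd2, an AMP deaminase, fell (-0.64). The axis gave 1 lower and 3 higher under median ratios, and 2 and 3 without the length trend. Of 5 tested genes of acetyl-CoA supply, 3 were lower and 0 higher (median -0.60), among them Acly, which makes acetyl-CoA from citrate, at 44.5 ± 0.282 TPM in knockout and 73.3 ± 3.70 TPM in wild type (-0.71, limma adjusted p = 0.00026), and Acss2, which makes it from acetate (-0.60), a call lost without the length trend (adjusted p = 0.107). The supply list gave 3 lower and 2 higher under median ratios, and 2 and 2 without the length trend.

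The EMT6 genes with the most similar profiles were found by the root mean square difference of centred log2(TPM + 1) values over 6 libraries. For Ep300 they were Atp8b2 (0.0695), Sgms2 (0.0709) and Atp2b4 (0.0766). For Crebbp they were Rnf44 (0.0317), Lss (0.0481) and Srrm4 (0.0492), and for Ncoa3 Ehmt1 (0.0601), Rps2 (0.0608) and Zfp248 (0.0612). For Ncoa2 they were Usp37 (0.0495), Ptbp3 (0.0611) and Rapgef6 (0.0647), and for Ncoa1 Polr3gl (0.0353), Tomm40l (0.0506) and Vps72 (0.0529). In MDA-MB-231 the nearest profile lay at 0.306 for NCOA3 and at 0.0169 for NCOA2, among unnamed identifiers.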

How the data were processed

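The authors deposited TPM values in 1 table per line, each library scaled to a sum of 1000000, so read numbers, and with them counting error, are not known. The submitters' processing notes list Subread 1.6.4, featureCounts, TopHat2 2.1.1 and CASAVA 1.8.2, and as builds GRCh38.p7 and mm10, without settings. TPM is relative, so a few abundant genes can shift all others. Libraries held 11871 to 13593 genes at 1 TPM or more, and no pair of libraries shared more than 0.00862% of values.

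Each line was fitted over all tested genes on log2(TPM + 1) in R 4.3.3 by limma 3.58.1 with its intensity trend option. The added 1 TPM understates changes of low genes. Adjusted p is Benjamini-Hochberg over all tested genes, with calls at 0.05. The script was tested on simulated data, where it missed many small changes. Of 50 genes changed 1.5-fold it recovered 20 for EMT6 and 7 for MDA-MB-231. Of 50 changed 2-fold it recovered 36 for EMT6 and 26 for MDA-MB-231. False calls were 11 of 161 calls for EMT6 and 11 of 131 for MDA-MB-231. Mouse positions, exon lengths (13487 of 13499 tested genes) and coding sequences were read from GENCODE M21 (GRCm38, also called mm10). Alternatives were median-ratio scaling, no filter, a filter of 1 TPM, a pseudocount of 0.1 TPM, no trend, each library left out, the replicate number as a block and, in EMT6, removal of a lowess trend on log2 exon length with and without the block. Other steps used Python 3.11.15. Genes named from the lists are up to 2 per direction with the smallest adjusted p, beside all 5 members and their 3 nearest profiles with an established symbol. One gene that this rule names is not reported here. The members and lists were chosen with earlier results of these data known.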

Additional observations from a re-analysis of the deposited data

How the results depend on the processing

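Of the 208 values recomputed under alternatives, 175 were counted as unchanged by loose rules. Tested values kept direction and side of the threshold, counts stayed within 1.5 times, and shares moved by less than 1 SD of the replicates. Values so counted can still differ widely: the log2 fold change of NCOA3 in MDA-MB-231, -0.70, ran from -1.18 to -0.18. The difference in NCOA3 share there, -9.58 percentage points, ran from -18.7 to -3.12. The EMT6 difference in Ncoa3 share, -1.79 percentage points, turned positive without knockout replicate 2 (0.876), wild-type replicate 2 (0.217) or wild-type replicate 3 (0.376). The number of EMT6 members called was 4, against 2 under median-ratio scaling, 2 with the length trend removed and 1 with the length trend removed and a replicate block. Over all tested EMT6 genes, the numbers called in the same order were 7659 of 13499, 6994 of 13499, 6713 of 13487 and 5699 of 13487. Ncoa1 was at 0.11 under median-ratio scaling and at 0.34 without the length trend, also with the block (adjusted p = 0.0711). Ncoa2 was at -0.26 and Ncoa3 at -0.24 with the length trend removed, with or without the block, and Ncoa3 at -0.41 under median-ratio scaling. Crebbp was at -0.13 under median-ratio scaling, at -0.37 with no filter (adjusted p = 0.0896) and with a replicate block (adjusted p = 0.0874), and at 0.10 with the length trend removed, with or without the block. Of the listed partners, 35 in place of 61 were called with the length trend removed and a replicate block.

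Leaving out 1 library gave 3 to 4 called EMT6 members, beside 6178 to 6818 called EMT6 genes in place of 7659. It gave log2 fold changes of -0.18 to 0.02 for Ncoa1 (0.0244 without wild-type replicate 3) and -0.45 to -0.26 for Crebbp. In MDA-MB-231 it gave 0 members, -0.23 to 0.51 for CREBBP, -0.37 to 0.24 for EP300 and 1223 to 2529 called genes in place of 3065, with 1553 and 1809 without knockout replicate 2 and 3, and 1223 and 1626 without wild-type replicate 1 and 3. The sign of CREBBP turned without knockout replicate 3 (-0.23) and wild-type replicate 3 (-0.09), and that of EP300 without knockout replicate 1 (0.24) and wild-type replicate 1 (0.01). The replicate block gave 1564 called genes there. Replicate numbers showed no clear pairing of the libraries. Deviations of same-numbered libraries correlated at -0.13 to 0.11, and 3 of 6 knockout libraries matched their own number best. With 3 libraries per group this check cannot exclude a pairing. Causes were not tested. The test of a difference between lines and the removal of a length trend in MDA-MB-231 were not run, and human names beyond the 5 members and human exon lengths were not used here. Read depth is unknown, and 3 libraries per group limit what MDA-MB-231 can show.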
